A study of Mus musculus with 10 samples.

Results

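Genes of fatty acid metabolism were followed through the chromatin of cultured mouse neural stem and progenitor cells (NSPCs) in quiescence, activation and reactivation. They are *Srebf1*, *Ppara*, *Acly*, *Acaca*, *Fasn*, *Thrsp*, *Scd2*, *Cpt1a* and *Cpt2*, 9 of the 21911 protein-coding genes in the GENCODE M21 annotation of mm10. A region of open chromatin was counted to one of them when a peak in it lay in the gene or within 50 kb of it and the nearest protein-coding transcription start site (TSS) to that peak was a start of the gene. This gave 62 sites of the 108367 found on the autosomes, X and Y when peaks of the ATAC-seq lists that overlapped or abutted were merged. NSPCs of the C57BL/6 strain came from brains at postnatal day 5. For activated NSPCs the medium held the growth factors EGF and FGF2, both at 20 ng/ml. For quiescent NSPCs, EGF was left out, FGF2 was kept at 20 ng/ml and BMP4, a bone morphogenetic protein, was added at 25 ng/ml. The sample labels put this treatment at 4 days, whereas the study's methods give a shorter time for ATAC-seq. Reactivated NSPCs had 4 days of the quiescence medium, followed by 9 to 12 days of the activating medium. Stem cells and progenitors were not separated in these cultures, and no animal or pool is named for a library. ATAC-seq, in which a transposase cuts accessible DNA, was done on 2 libraries per state, and H3K4me3, a histone mark of promoters, was mapped in 1 library each of quiescent and activated NSPCs. No transcript levels were analysed here.

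Fatty acid synthesis starts with ACLY, which makes cytosolic acetyl-CoA from citrate. Acetyl-CoA carboxylase, encoded by *Acaca*, turns it into malonyl-CoA, from which fatty acid synthase (*Fasn*) builds palmitate, and SCD2 introduces a double bond into saturated fatty acids. *Thrsp* encodes a small protein that acts on lipid synthesis, and *Srebf1* encodes SREBP1, the transcription factor that drives genes of the pathway. In oxidation, CPT1A couples fatty acids to carnitine at the outer mitochondrial membrane and CPT2 reverses this step inside. Malonyl-CoA inhibits CPT1A, so that synthesis restrains oxidation. *Ppara* encodes PPARα, a nuclear receptor that drives oxidation genes. In the neurogenic niches, FASN-dependent synthesis is known to be needed for NSPC proliferation and CPT1A-dependent oxidation is known to be high in quiescent NSPCs.

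Sequences are printed for 6 of the sites and for the stretch upstream of *Fasn*. Each site is named by its gene and the distance in bp of its summit from the nearest TSS of the gene, with minus for upstream. Capitals mark exact matches, on either strand, to the motifs CCAAT (NF-Y), GGGCGG (Sp and KLF factors) and CACGTG (an E-box), and the sites are read on the plus strand of GRCm38.p6 (the mm10 assembly) in 300 bases around the summit. The first 3 sites had a peak in both quiescent and both reactivated libraries and in neither activated library.
Cpt2 −20758, intergenic, chr4:107944218-107944517: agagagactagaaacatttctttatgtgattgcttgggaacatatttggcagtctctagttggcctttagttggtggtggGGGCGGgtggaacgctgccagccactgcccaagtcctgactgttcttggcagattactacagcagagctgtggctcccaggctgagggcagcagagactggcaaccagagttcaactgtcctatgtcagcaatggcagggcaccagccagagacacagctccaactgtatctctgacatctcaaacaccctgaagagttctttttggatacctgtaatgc
Ppara −32081, in an intron of the noncoding gene Lncppara, chr15:85703333-85703632: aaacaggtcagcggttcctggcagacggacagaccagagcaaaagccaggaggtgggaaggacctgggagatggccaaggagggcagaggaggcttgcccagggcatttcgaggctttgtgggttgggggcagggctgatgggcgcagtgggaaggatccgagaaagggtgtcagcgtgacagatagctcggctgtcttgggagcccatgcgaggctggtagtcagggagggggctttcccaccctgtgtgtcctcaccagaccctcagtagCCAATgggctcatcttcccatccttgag
Ppara −26063, intergenic, chr15:85709351-85709650: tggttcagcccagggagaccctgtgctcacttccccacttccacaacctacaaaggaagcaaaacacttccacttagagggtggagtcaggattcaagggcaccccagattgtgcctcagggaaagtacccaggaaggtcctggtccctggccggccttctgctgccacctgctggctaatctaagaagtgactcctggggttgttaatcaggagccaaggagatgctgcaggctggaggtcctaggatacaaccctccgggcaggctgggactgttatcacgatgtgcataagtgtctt
The next pair had a peak in both activated and both reactivated libraries and in neither quiescent library.
Acaca +44092, in an intron of Acaca, chr11:84324397-84324696: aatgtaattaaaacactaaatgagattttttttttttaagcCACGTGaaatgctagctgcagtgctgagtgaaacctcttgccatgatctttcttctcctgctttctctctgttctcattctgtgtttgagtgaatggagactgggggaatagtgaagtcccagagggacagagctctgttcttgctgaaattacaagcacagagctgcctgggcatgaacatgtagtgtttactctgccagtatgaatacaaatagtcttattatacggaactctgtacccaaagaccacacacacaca
Acly +603, within 1 kb of the start of Acly, chr11:100527116-100527415: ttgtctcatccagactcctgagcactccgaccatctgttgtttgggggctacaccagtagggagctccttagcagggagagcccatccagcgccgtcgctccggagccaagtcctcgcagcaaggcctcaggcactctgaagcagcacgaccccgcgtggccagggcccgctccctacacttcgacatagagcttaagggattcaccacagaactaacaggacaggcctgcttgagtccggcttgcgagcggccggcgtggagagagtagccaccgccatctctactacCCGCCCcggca
At the site upstream of *Scd2*, peaks in all libraries were strongest in reactivated NSPCs.
Scd2 −26530, intergenic, chr19:44266994-44267293: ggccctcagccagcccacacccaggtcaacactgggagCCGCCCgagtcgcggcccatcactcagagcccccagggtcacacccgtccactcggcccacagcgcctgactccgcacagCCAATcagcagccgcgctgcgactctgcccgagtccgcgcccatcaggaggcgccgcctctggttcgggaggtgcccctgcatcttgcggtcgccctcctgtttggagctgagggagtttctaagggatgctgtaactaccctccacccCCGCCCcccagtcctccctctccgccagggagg
The 250 bases before the outermost start of *Fasn* are given on the strand of the gene, from RefSeq on GRCm38.p6.
Fasn upstream, minus strand, chr11:120824548-120824797: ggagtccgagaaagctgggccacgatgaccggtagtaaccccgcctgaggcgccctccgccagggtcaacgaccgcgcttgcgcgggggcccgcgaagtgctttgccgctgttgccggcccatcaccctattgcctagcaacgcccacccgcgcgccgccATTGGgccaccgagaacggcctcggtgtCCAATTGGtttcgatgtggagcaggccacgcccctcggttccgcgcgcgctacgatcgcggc

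The value of a site in a library was the fold enrichment of its highest peak, the ratio that MACS gives of the pileup of reads at the summit to the background. The quiescent and activated lists held between 47037 and 60355 peaks, and the reactivated lists 106270 and 106830. In quiescent replicate 2 the genome-wide background pileup was 12.1 reads where the other libraries had 6.01 to 6.61, and its lowest pileup called was 25 where theirs was 16 or 17. A site was called open in a state with a peak in both libraries and closed with a peak in neither, and closed means only that no peak was detectable at this depth. At the 23116 sites with a peak in every library, fold enrichment was higher in reactivated NSPCs by a median of 1.65-fold over quiescent and 1.46-fold over activated NSPCs. The peak names of the reactivated lists hold the word downsample, without saying what was reduced or by how much. Such a step cannot be told apart from the state. The 8 markers of neural stem and progenitor cells that were examined, *Sox2* and *Nes* among them, had a promoter peak in all 6 libraries. In each library, 4 or 5 of 5 neuronal, 2 of 4 astrocyte, 1 of 4 microglial, 0 or 1 of 4 oligodendrocyte and 0 of 4 endothelial markers had one. Of the astrocyte markers, *Gfap* had a promoter peak in no library and *Aldh1l1* and *Slc1a2* in all 6, and the part of other cell types in the results was not tested.

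Each of the 9 genes had a start at which chromatin was open in every state, while some starts within *Srebf1*, *Acaca* and *Cpt1a* had no promoter site. Of the 13 promoter sites, within 1 kb of a TSS, 12 (92.3%) had a peak in all 6 libraries, where 54.4% of all promoter sites had. Away from promoters, 11 of 49 sites (22.4%) had, where 13.6% of all such sites had. These were 5 of 20 sites in introns, 4 of 24 in intergenic sequence and 2 of 5 in exons. In all, 23 of the 62 sites (37.1%) were open in all 3 states, against 21.3% of all sites. A further 2 sites (3.23%) were open in activated and reactivated and closed in quiescent NSPCs, against 3.89% of all sites, and 3 (4.84%) were open in quiescent and reactivated and closed in activated NSPCs, against 3.44%. Only quiescent NSPCs had a peak in both libraries at 1 site (1.61% against 1.65%), and only reactivated NSPCs at 4 (6.45% against 14.8%). No member site was open in activated NSPCs alone, a pattern of 0.0923% of all sites. A peak in a single library was found at 19 sites (30.6% against 31%), of which 9 were in reactivated replicate 1 and 5 in reactivated replicate 2. The other 10 sites had a peak in part of the libraries of a state. By library, 31 and 32 member sites (50% and 51.6%) had a peak in quiescent NSPCs, where 39.3% and 43.3% of all sites had. In activated NSPCs 30 and 31 had one (48.4% and 50%, against 40.3% and 33.3%), and in reactivated NSPCs 49 and 45 (79% and 72.6%, against 74.5% and 75.1%). The reactivated lists thus gave more member sites, and they are the longer lists. When each list was limited to as many of its strongest peaks as the shortest one holds, 1 site was open in quiescent and reactivated and closed in activated NSPCs, and none had the activated and reactivated or the reactivated-only pattern.

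**Figure D1:**
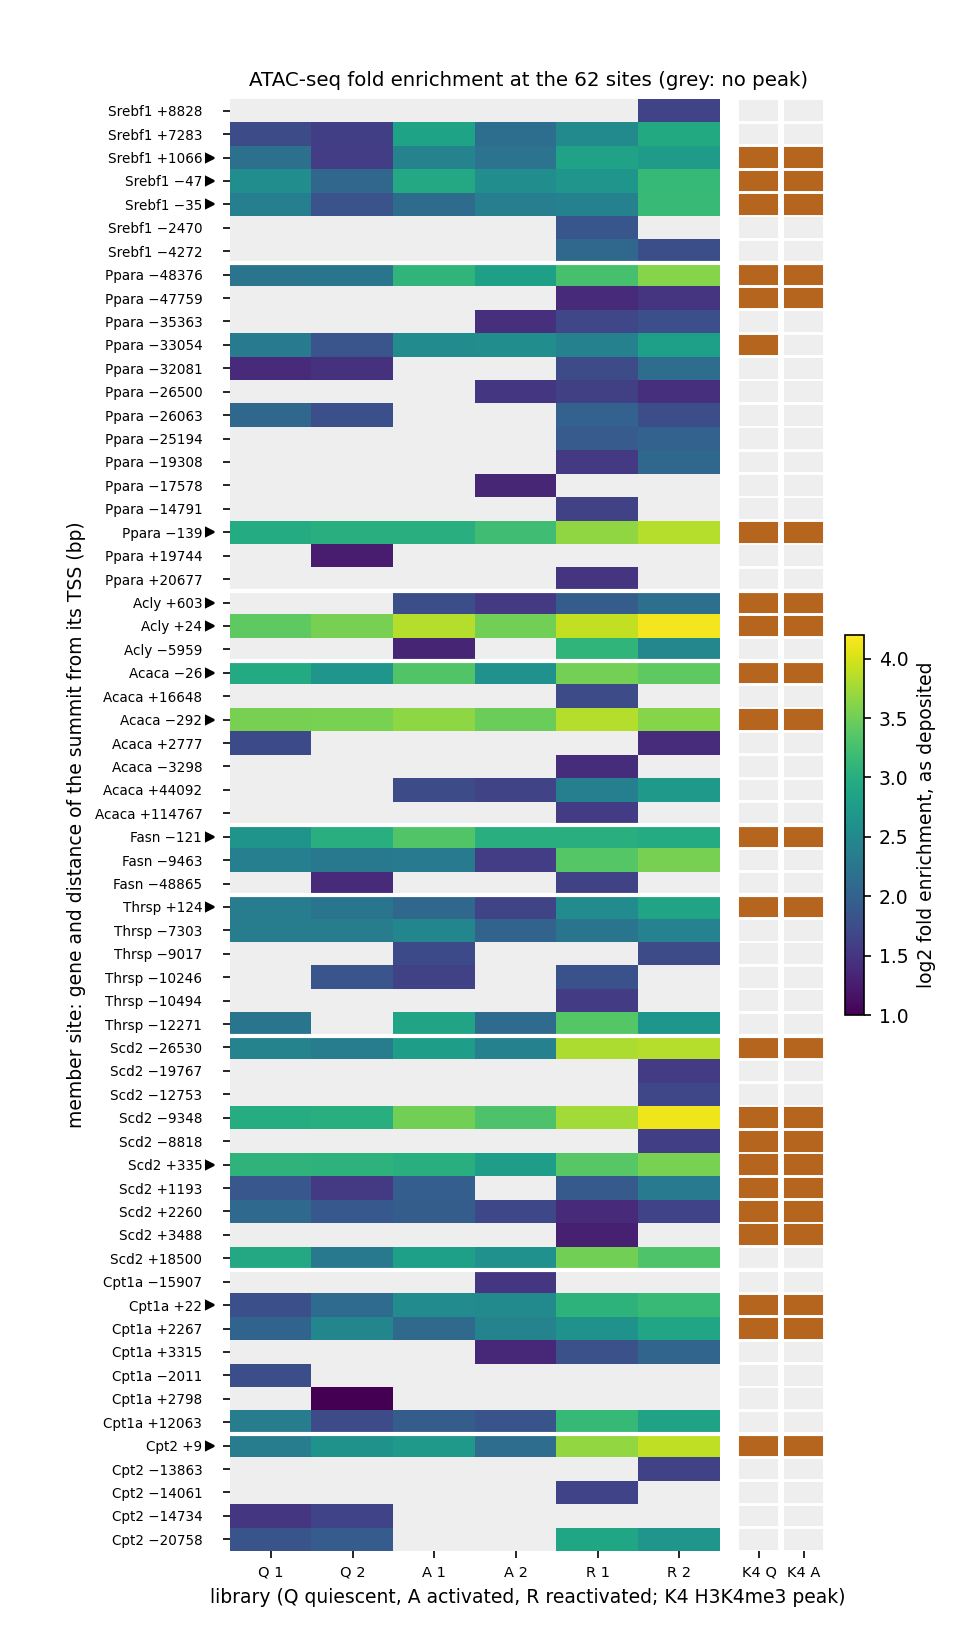
Log2 fold enrichment, as deposited, at the 62 sites (rows, in gene order, named by distance of the summit from the TSS in bp) in the 6 ATAC-seq libraries, with grey for no peak, an arrowhead for promoter sites and brown for an H3K4me3 peak in quiescent (K4 Q) or activated (K4 A) NSPCs. Promoter rows are filled across all libraries except at Acly +603, and 49 and 45 rows are filled in the reactivated libraries against 30 to 32 in the others.

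*Srebf1* (ENSMUSG00000020538.15, chromosome 11 from 60199089 to 60222581, minus strand) had 7 sites. The promoter site at −47 had fold enrichments of 5.94 and 4.16 in replicates 1 and 2 of quiescent NSPCs. Activated replicates had 7.61 and 5.92 there, and reactivated replicates 6.37 and 8.84. At the start further upstream, the site at −35 had 5.23 and 3.52, 4.38 and 5.16, and 5.28 and 9.00 in the same order. The site at +1066, whose summit in reactivated replicate 2 lay within 1 kb of the TSS, had 4.52 and 2.99, 5.39 and 4.64, and 7.17 and 6.78. Quiescent and activated values overlapped at −47 and −35, and at +1066 the activated values lay above the quiescent ones. The strongest distal site lay in an exon, at +7283 from another start, one with no promoter site. It had 3.36 and 3.01 in quiescent against 7.27 and 4.47 in activated and 5.71 and 7.68 in reactivated NSPCs. None of these 4 sites passed the test in any comparison. The intergenic site at −4272 was open in reactivated NSPCs alone, with 4.23 and 3.42 on pileups of 40 and 34 reads.

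*Ppara* (ENSMUSG00000022383.13, chromosome 15 from 85734983 to 85802819, plus strand) had the most sites, 14, and 11 of them lay upstream of the gene. Its promoter site at −139 had fold enrichments of 7.84 and 8.09 in quiescent NSPCs, 8.02 and 9.30 in activated NSPCs and 12.7 and 14.4 in reactivated NSPCs. The strongest distal site, at −48376 in an intron of the noncoding gene *Lncppara*, had 4.71 and 4.74, 8.54 and 7.04, and 9.60 and 12.3. There the values were lowest in quiescent and highest in reactivated NSPCs, with no overlap between states as deposited, but no difference passed the test. Of all sites open throughout, 37.5% had activated values above quiescent and 77.4% reactivated values above activated ones. The other site open throughout, at −33054, had values between 3.59 and 7.02. Next to it, the site at −32081 had 2.63 and 2.74 in quiescent and 3.36 and 4.42 in reactivated NSPCs and no peak in activated NSPCs. The site at −26063 followed the same pattern, with 4.18 and 3.43 in quiescent and 4.00 and 3.39 in reactivated NSPCs. Pileups in the quiescent libraries were 27 and 40 reads at −32081 and 36 and 44 at −26063. At 2 further sites there was a peak in activated replicate 2 and both reactivated libraries and in no quiescent library, with 2.69, 3.21 and 3.44 at −35363 and 2.83, 3.05 and 2.72 at −26500. The sites open in reactivated NSPCs alone had 2.61 and 2.79 at −47759, 3.77 and 4.01 at −25194, and 2.92 and 4.19 at −19308.

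*Acly* (ENSMUSG00000020917.17, chromosome 11 from 100476353 to 100528000, minus strand) had the strongest promoter site of the 9 genes by mean fold enrichment. At +24 it had 10.6 and 11.7 in quiescent NSPCs, 14.3 and 11.5 in activated NSPCs and 15 and 17.7 in reactivated NSPCs. After normalization the log2 difference between activated and quiescent NSPCs was 0.12 ± 0.127 (SE, adjusted p = 0.639, limma). The neighbouring site at +603 had no peak in quiescent NSPCs, 3.42 and 2.92 in activated and 3.86 and 4.54 in reactivated NSPCs, on pileups of 30 to 70 reads. At −5959, activated replicate 1 had a peak of 2.52 and the reactivated libraries had peaks of 8.54 and 5.59. The opening at this intergenic site was seen in both reactivated libraries and in no quiescent library.

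*Acaca* (ENSMUSG00000020532.18, chromosome 11 from 84129672 to 84401651, plus strand) has several starts. At the start within the gene, the site at −292 had 11.7 and 11.8 in quiescent NSPCs, 12.6 and 11.2 in activated NSPCs and 14.3 and 12.3 in reactivated NSPCs. This was the narrowest range of the promoter sites open throughout. The site at the outermost start, at −26, is shared with *Tada2a*, a gene that runs the other way. It had fold enrichments from 6.13 to 11.6, and the peaks of the quiescent and activated libraries in it lay nearer to the TSS of *Tada2a*, so that only reactivated peaks counted it to *Acaca*. In an intron, the site at +44092 had no peak in quiescent NSPCs, 3.32 and 3.14 in activated and 5.20 and 6.65 in reactivated NSPCs. Pileups there were 24 and 21 reads in activated and 38 and 49 in reactivated NSPCs, so that the activated peaks lay close to the lowest pileup called.

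*Fasn* (ENSMUSG00000025153.9, chromosome 11 from 120805846 to 120824547, minus strand) had a broad promoter site of 1367 bp, from 120823693 to 120825059, that took in all 3 of its protein-coding starts. Its summit lay at −121 of the middle start. Fold enrichment was 6.28 and 8.04 in quiescent NSPCs, 10.1 and 8.08 in activated NSPCs and 8.03 and 7.86 in reactivated NSPCs. The activated values lay just above the quiescent ones and the reactivated values fell between the quiescent ones. It was the only promoter site of the 9 genes at which both reactivated libraries were below both activated libraries, a pattern of 2.54% of all sites open throughout. The highest summit lay at position 120824671 in reactivated replicate 1 and between 120824194 and 120824269 in the other libraries. Read pileups, not scaled for depth, were highest in reactivated NSPCs, with 96 and 166 in quiescent NSPCs, 163 and 107 in activated NSPCs and 218 and 176 in reactivated NSPCs. The local background that MACS divided them by was 14.4 and 19.8, 15.2 and 12.4, and 26.3 and 21.5 in the same order. The match to the SREBP motif within this site, GTGGGGTGA on the plus strand, was found at chr11:120824247-120824255, from 152 to 160 bp before the middle start, and a CCAAT match lay at chr11:120824200-120824204, from 105 to 109 bp before it. The distal site at −9463 overlapped an exon and lay over *Ccdc57* and the antisense gene *Gm11773*. It had 5.19 and 4.89 in quiescent NSPCs, 5.04 and 2.99 in activated NSPCs and 10.2 and 11.7 in reactivated NSPCs.

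*Thrsp* (ENSMUSG00000035686.8, chromosome 7 from 97412938 to 97417730, minus strand) had its promoter site at +124. Fold enrichment was 5.07 and 4.74 in quiescent NSPCs, 4.24 and 3.14 in activated NSPCs and 5.81 and 7.33 in reactivated NSPCs, so that activated NSPCs had the lowest values. The log2 difference between activated and quiescent NSPCs after normalization was −0.71 ± 0.228 (SE, adjusted p = 0.0569, limma), the lowest adjusted p of the member sites in that comparison. The upstream site at −7303 had 5.12 in both quiescent libraries, 5.55 and 4.05 in activated and 4.75 and 5.36 in reactivated NSPCs. The strongest distal site, at −12271, had a peak in 5 libraries, with 4.73 in quiescent replicate 1, none in quiescent replicate 2, 7.29 and 4.35 in activated and 10.2 and 6.44 in reactivated NSPCs.

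*Scd2* (ENSMUSG00000025203.6, chromosome 19 from 44293674 to 44306864, plus strand) had 10 sites, 5 of them open throughout. The promoter site at +335 had 8.48 and 8.40 in quiescent NSPCs, 8.07 and 6.88 in activated NSPCs and 10.3 and 11.8 in reactivated NSPCs. Its strongest distal site, at −9348, had 7.87 and 8.02, 11.5 and 9.88, and 13.5 and 17.3, with no overlap between states as deposited. The intergenic site at −26530 had 5.39 and 5.12 in quiescent NSPCs, 6.91 and 5.28 in activated NSPCs and 14.0 and 14.3 in reactivated NSPCs. In reads the pileup there was 40 and 66, 52 and 36, and 129 and 133. The intronic site at +2260 went the other way, with 4.27 and 3.68, 3.85 and 3.23, and 2.63 and 3.12. It was the only member site at which fold enrichment as deposited was lower in both reactivated than in both quiescent libraries, a pattern of 2.49% of the sites tested.

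*Cpt1a* (ENSMUSG00000024900.5, chromosome 19 from 3322334 to 3385733, plus strand) had a promoter site at +22 with 3.43 and 4.36 in quiescent NSPCs, 5.85 and 5.72 in activated NSPCs and 8.37 and 8.90 in reactivated NSPCs. The quiescent values were thus the lowest at the start of the gene for the entry step of oxidation. The log2 difference between activated and quiescent NSPCs was 0.38 ± 0.231 (SE, adjusted p = 0.351, limma), within the spread of the libraries after normalization. The intronic site at +2267 had 4.08 and 5.53 in quiescent, 4.30 and 5.39 in activated NSPCs and 6.18 and 7.42 after reactivation. The one at +12063 had 5.12 and 3.36, 3.85 and 3.57, and 8.82 and 7.18 in the same order. Quiescent and activated values overlapped at both, and reactivated values were higher as deposited. Of the other 4 sites of *Cpt1a*, only +3315 had a peak in more than 1 library, with 2.57 in activated replicate 2, 3.46 and 4.12 in reactivated and none in quiescent NSPCs.

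*Cpt2* (ENSMUSG00000028607.16, chromosome 4 from 107903981 to 107923610, minus strand) had 5 sites, and all but the promoter site were intergenic. The promoter site at +9 had 5.13 and 6.19 in quiescent NSPCs, 6.65 and 4.42 in activated NSPCs and 12.8 and 14.9 in reactivated NSPCs. At −20758, quiescent NSPCs had peaks of 3.55 and 3.82 and reactivated NSPCs peaks of 7.34 and 6.38, on pileups of 26 and 49 and of 54 and 47 reads, and activated NSPCs had none. At −14734 only the quiescent libraries had a peak, with 2.85 and 3.13 on pileups of 21 and 40 reads. This was the single site of the 62 that was open in quiescent NSPCs alone.

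**Figure D2:**
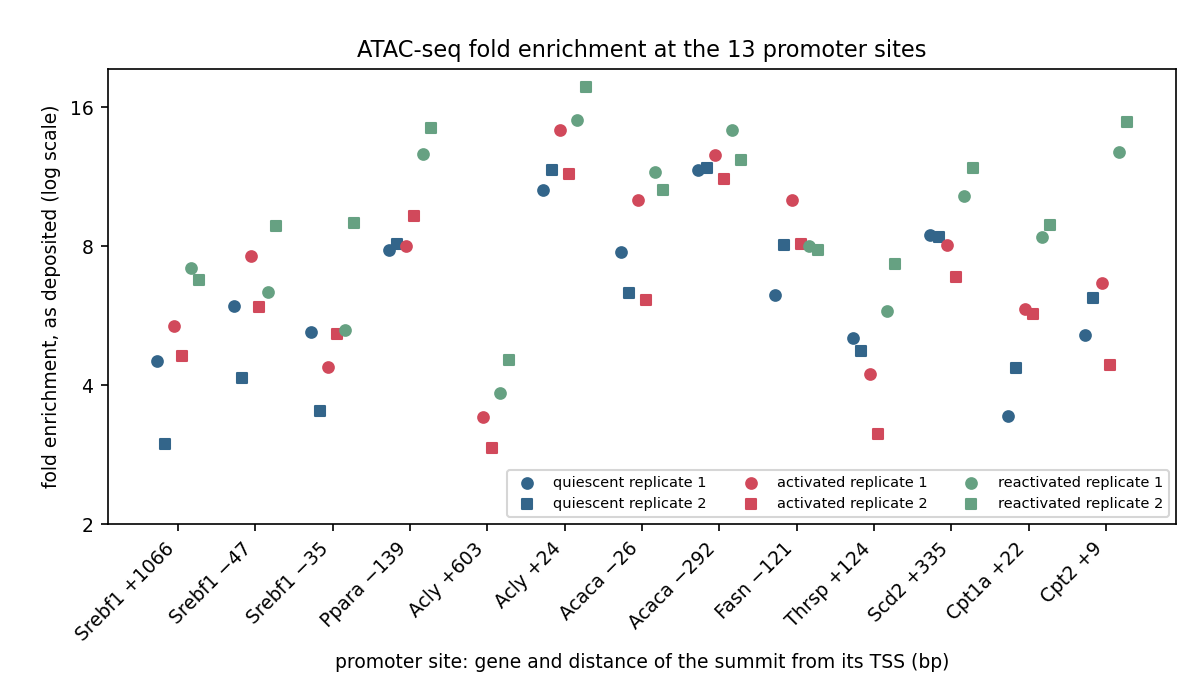
Fold enrichment as deposited (log scale) at the 13 promoter sites in each of the 6 libraries, with circles for replicate 1 and squares for replicate 2. Reactivated values are the highest at most sites and at Fasn −121 they are 8.03 and 7.86 against 10.1 and 8.08 in activated NSPCs, and Acly +603 has no quiescent point because neither library had a peak there.

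To ask which differences exceeded the spread between libraries, log2 fold enrichment at the 23116 sites with a peak in every library was quantile-normalized and fitted with limma, with p-values adjusted over all of these sites. The fit held 23 of the 62 member sites, of which 12 were promoter sites, and the other 39 had no peak in at least 1 library. Between activated and quiescent NSPCs none of the 23 passed an adjusted p of 0.05, where 10.7% of all sites did, and 4 had an unadjusted p below 0.05, where 23.9% of all sites did. The median log2 difference of the members was −0.05, against −0.017 over all sites, with a range from −0.71 to 0.64. As deposited, 7 of the 23 were higher in both activated than in both quiescent libraries and 2 lower, where 37.5% and 11.5% of all sites were. With 2 libraries a state, a site that missed the threshold is not shown to be alike in both states. With pileups divided by the genome-wide background of the library in place of the local one, a choice made after the data were seen, Fasn −9463 (−0.78, adjusted p = 0.0369) and Thrsp +124 (−0.80, adjusted p = 0.0331) passed as lower in activated NSPCs. With the local background Fasn −9463 was at −0.67 (adjusted p = 0.089). It passed without activated replicate 1, at −0.98 (adjusted p = 0.0266), and was at −0.29 (adjusted p = 0.55) without activated replicate 2.

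Relative to the typical site, reactivated NSPCs differed from activated NSPCs at 4 member sites, where 18.2% of all sites did, and 9 had an unadjusted p below 0.05, where 33.9% did. As deposited, 16 of the 23 were higher in both reactivated libraries than in both activated ones and 2 lower, where 77.4% and 2.54% of all sites were. Fasn −121 was lower, by a log2 difference of −0.85 ± 0.19 (SE, adjusted p = 0.00784), where 8.92% of all sites were lower. It passed without each library in turn and with the genome-wide background, at −0.54 (adjusted p = 0.0298). It did not pass without normalization (−0.19, adjusted p = 0.473) with the mean over the peaks of the site (−0.58, adjusted p = 0.14) or with a floor for libraries with no peak (−0.91, adjusted p = 0.0524). Higher were Fasn −9463 at 0.90 ± 0.239 (adjusted p = 0.0169), Cpt2 +9 at 0.79 ± 0.203 (adjusted p = 0.0146) and Scd2 −26530 at 0.68 ± 0.179 (adjusted p = 0.0169), 3 of 23 where 9.31% of all sites were higher. Without activated replicate 2 or either reactivated replicate, the adjusted p of these 3 sites lay between 0.0622 and 0.181. Without each library in turn, the difference ranged from 0.54 (without activated replicate 2) to 1.22 (without activated replicate 1) at Fasn −9463, from 0.59 to 0.95 at Cpt2 +9 and from 0.59 to 0.73 at Scd2 −26530. With the genome-wide background Fasn −9463 passed at 0.91 and Cpt2 +9 and Scd2 −26530 did not (adjusted p = 0.267 and 0.209). With the floor none of the 3 passed (adjusted p from 0.0524 to 0.104), and with the mean over peaks only Cpt2 +9 did (0.92, adjusted p = 0.0401).

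Against quiescent NSPCs, 1 member site was higher in reactivated NSPCs, where 13.6% of all sites were, and 4 were lower, where 14.1% were. Together these 5 compare with 27.7% of all sites, and the 7 with an unadjusted p below 0.05 with 40.4%. As deposited, 20 of the 23 were higher in both reactivated than in both quiescent libraries and 1 lower, where 85.3% and 2.49% of all sites were. Scd2 −26530 was higher by 0.66 ± 0.179 (SE, adjusted p = 0.0131). Scd2 +2260 was lower by a log2 difference of −1.01 ± 0.215 (adjusted p = 0.00318), Thrsp −7303 by −0.81 ± 0.221 (adjusted p = 0.0129), Fasn −121 by −0.68 ± 0.19 (adjusted p = 0.0149) and Acaca −292 by −0.45 ± 0.142 (adjusted p = 0.0263). These sites were lower relative to a shift of 0.72 (log2) in the median of all sites, and without normalization none of the 4 passed, with Acaca −292 at 0.18, Fasn −121 at 0.16, Thrsp −7303 at −0.02 and Scd2 +2260 at −0.47. None of the 5 passed with the genome-wide background, where adjusted p lay between 0.0614 and 0.615, and Cpt1a +22 (0.68, adjusted p = 0.0362) and Ppara −48376 (0.71, adjusted p = 0.0135) passed as higher instead. With the mean over peaks Scd2 −26530 (0.16, adjusted p = 0.597), Acaca −292 (−0.24, adjusted p = 0.388) and Fasn −121 (−0.72, adjusted p = 0.0629) did not pass. Fasn −121 did not with a −log10 q of at least 10 (adjusted p = 0.0525), nor Acaca −292 with the floor for libraries with no peak (adjusted p = 0.0752). Without each library in turn, the difference at Acaca −292 ranged from −0.65 to −0.29. Scd2 −26530 was also lost without either quiescent or either reactivated replicate (adjusted p from 0.0622 to 0.0952) and Scd2 +2260 without reactivated replicate 1 (0.0664). Thrsp −7303 and Fasn −121 were lost without quiescent replicate 2 or either reactivated replicate (0.0598 to 0.143), and Acaca −292 without either quiescent replicate or reactivated replicate 2 (0.115 to 0.220).

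**Figure D3:**
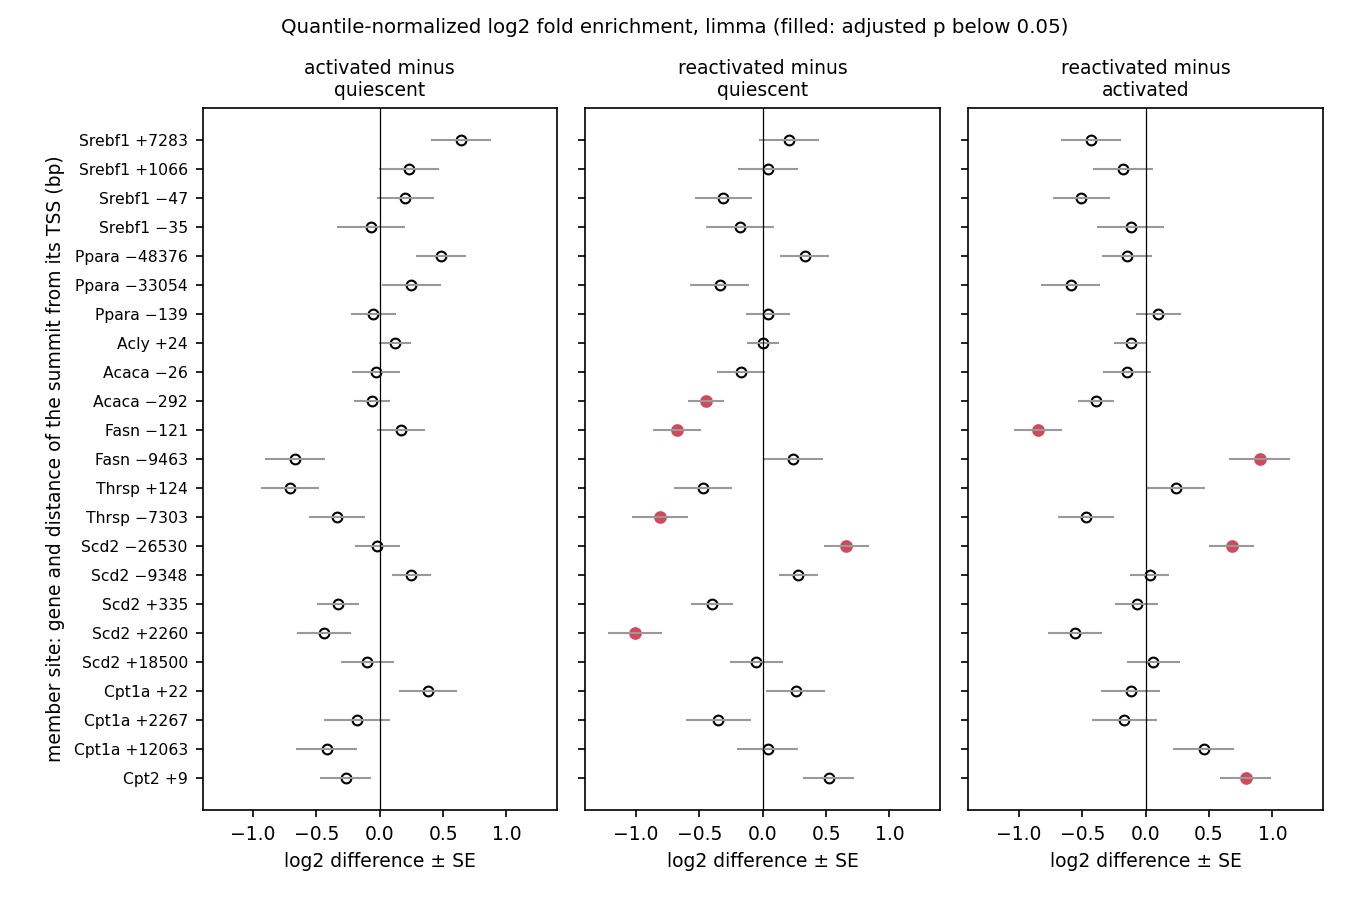
Log2 difference ± SE in quantile-normalized fold enrichment at the 23 member sites in the fit for the 3 comparisons, with filled points for an adjusted p below 0.05. No point is filled between activated and quiescent NSPCs, 5 are filled between reactivated and quiescent and 4 between reactivated and activated NSPCs, and Fasn −121 is filled on the lower side in both of the latter.

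**Figure D4:**
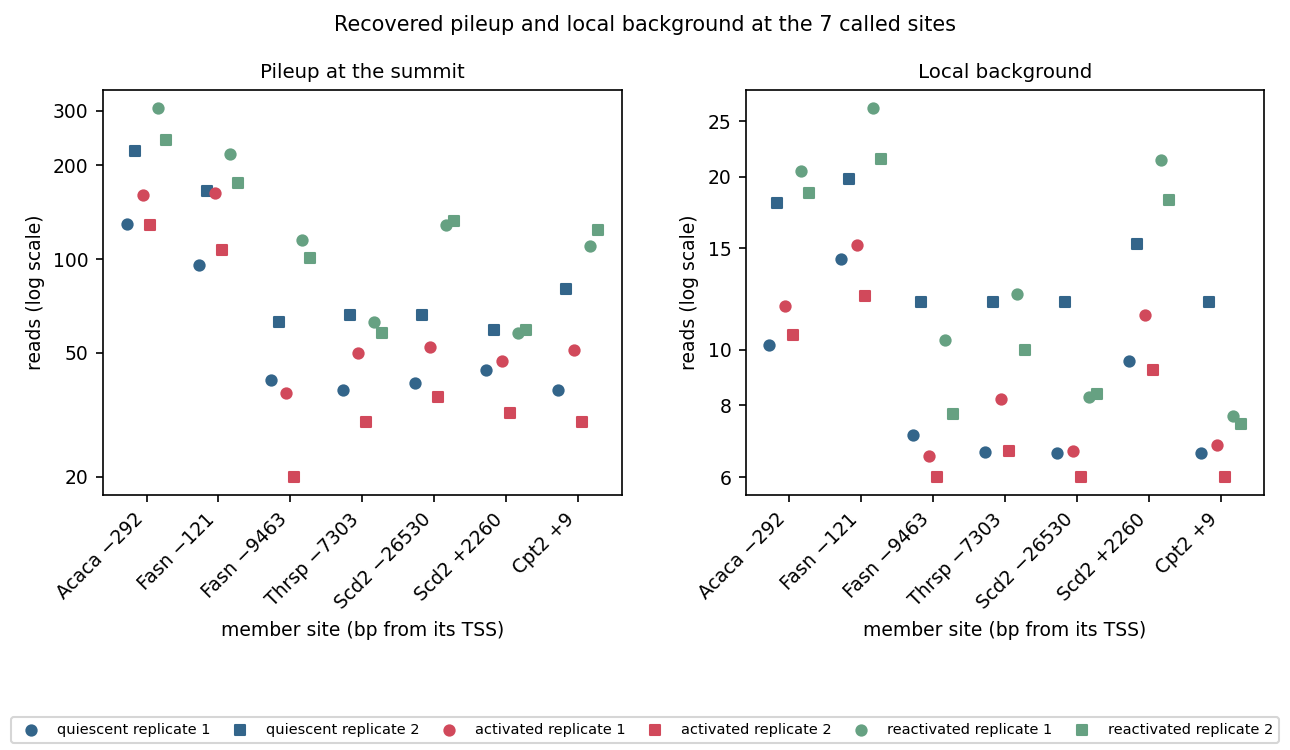
Pileup of reads at the summit (left) and local background of MACS (right), both on log scales and recovered from the deposited values, at the 7 member sites called in a comparison, in each library and not scaled for depth (quiescent replicate 2 has the highest genome-wide background). At Fasn −121 and Acaca −292 the reactivated libraries have the highest pileup and the highest local background, whereas at Cpt2 +9 and Scd2 −26530 their pileup is the highest and their background is below that of quiescent replicate 2.

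H3K4me3 marked a start of every one of the 9 genes in both states. The share of all protein-coding genes so marked is not given here, so this count does not set the 9 genes apart. The lists held 14 peaks of member genes in quiescent and 13 in activated NSPCs, of 17166 and 15962 in all, and with 1 library per state no difference was tested. *Scd2* had the widest mark over a start, 11860 bp in quiescent and 9630 bp in activated NSPCs, wider than 99.9% of the peaks of either list, whose medians were 1734 and 1708 bp. *Fasn* followed with 4970 and 4715 bp, and *Cpt2* had the narrowest, 1295 and 1237 bp. Fold enrichment over input at the *Fasn* start was 48.0 in quiescent and 37.9 in activated NSPCs, and at *Acly* 48.3 and 39.1. At *Cpt1a* it was 37.1 and 28.4, at *Cpt2* 38.7 and 30.3, at *Acaca* 37.4 and 33.1, at *Ppara* 47.7 and 41.9 and at *Thrsp* 20.1 and 16.2. *Scd2* had 41.8 and 45.4. Apart from *Scd2*, quiescent values were the higher at these 7 genes. Of 11812 pairs of peaks over the same TSS in both states, 66.7% were higher in quiescent NSPCs. At *Srebf1* the peaks over its 2 marked starts went in opposite directions, with 23.8 and 32.2 at one and 33.1 and 26.7 at the other.

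Away from the starts, a domain of 23979 bp in quiescent NSPCs, on chromosome 15 from 85664450 to 85688428 over *Lncppara*, reached into the window upstream of *Ppara*. In activated NSPCs the same stretch had a peak of 17583 bp, which ended outside the window, and one of 412 bp. A weak peak of 405 bp at the *Ppara* site at −33054, with a fold enrichment of 4.17, was listed for quiescent NSPCs alone. *Scd2* had weak peaks over the sites at −26530 (6.69 in quiescent and 8.32 in activated NSPCs) and −9348 (4.80 and 4.53) in both states. Of the 62 ATAC-seq sites, 22 lay under H3K4me3 in both states, 1 in quiescent NSPCs alone and 39 in neither. The share of all sites under the mark is not given here, so these counts only describe the member sites.

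**Figure D5:**
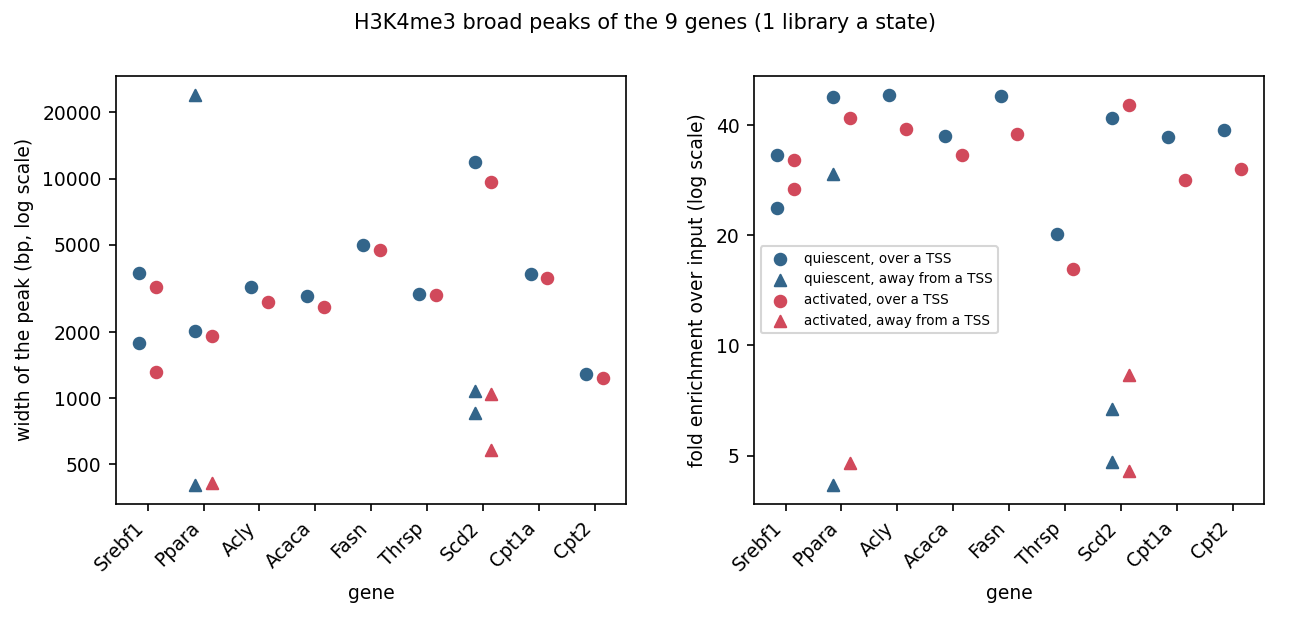
Width in bp (left) and fold enrichment over input (right), both on log scales, of the H3K4me3 peaks of each gene in quiescent and activated NSPCs, with circles for peaks over a TSS and triangles for others. Scd2 has the widest mark over a start in both states, 11860 and 9630 bp, and the triangle at the top left is the 23979 bp domain upstream of Ppara.

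Motifs of factors known at lipid genes and of others, AP-1 and NFI among them, were counted in the sites. In 300 bases around the summit, TCACNCCAC, a sterol response element bound by SREBP, was found at 1 of 62 sites, the one at the start of *Fasn*, and at 1.21% of all sites. CACGTG was found at 3 sites (4.84%), Acaca −26, Acaca +44092 and Cpt1a +2267, against 4.84% of all sites. CCAAT was found at 27 sites (43.5%) against 32.6%, and GGGCGG at 18 (29%) against 18.3%, whereas 58.2% of all promoter sites and 9.12% of the others held the latter. TGANTCA (AP-1) was found at 4 (6.45%) against 10.3%. None of the 62 sites held the direct repeat of AGGTCA spaced by 1 base, for PPAR with RXR, which 0.0212% of all sites held. None held the repeat spaced by 4 bases, for LXR with RXR (0.00923%), or the palindrome of TTGGC spaced by 5 bases, for NFI (0.125%). Both strands were searched for exact letters, and CCAATTGG, as upstream of *Fasn*, counts on each strand.

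Other genes of both pathways were counted from fixed lists, 38 genes of synthesis, desaturation and their regulators and 29 of oxidation and its regulators. Of these, 34 (89.5%) and 24 genes (82.8%) had a promoter peak in all 6 libraries, where 51.9% of protein-coding genes had. Between activated and quiescent NSPCs, 0 of 38 fitted promoter sites of the synthesis list were higher and 2 lower, *Acacb* (−0.80 ± 0.243), which encodes the carboxylase at the mitochondrial membrane, and *Slc25a1* (−0.75 ± 0.232), the carrier that exports citrate. Of 25 fitted promoter sites of the oxidation list, 0 were higher and 1 lower, *Slc25a20* (−0.99 ± 0.23), the carnitine carrier that works between CPT1 and CPT2. Their adjusted p-values by limma were 0.0447, 0.0471 and 0.0102. Of all sites, 6.03% were higher and 4.63% lower. With the genome-wide background all 3 passed again. With median scaling *Acacb* and *Slc25a1* did not (adjusted p = 0.0551 and 0.0663), and without normalization none of the 3 did (adjusted p from 0.0853 to 0.256). In each list, 1 site was higher and 0 lower without normalization, and 1 higher and 2 lower with the genome-wide background, and with median scaling 0 were higher and 1 of the synthesis and 2 of the oxidation list lower. *Slc25a20* had 6.05 and 4.28 in quiescent NSPCs, 3.32 and 2.99 in activated NSPCs and 8.27 and 10.1 in reactivated NSPCs. The other fitted promoter site of *Slc25a1* was at 0.05 between activated and quiescent NSPCs (adjusted p = 0.926, limma).

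Between reactivated and quiescent NSPCs, 3 promoter sites of the synthesis list were higher, *Me1* (1.06), *Elovl7* (0.89) and *Acsl5* (0.74), and 4 lower, among them *Insig1* (−0.97), *Scap* (−0.77) and *Fads2* (−0.49). *Insig1* and *Scap* encode the proteins that hold and escort SREBP. Of the oxidation list, 2 were higher, *Etfa* (0.56) and *Mlycd* (0.50), and 3 lower, with *Ppargc1a* (−1.11) and *Cpt1c* (−0.90) the furthest. Without normalization all called lower sites but *Insig1*, *Ppargc1a* and *Cpt1c* turned sign, namely *Scap* (0.09), *Fads2* (0.33), *Hacd1* (0.35) and *Acadm* (0.16), and 24 synthesis and 20 oxidation sites were higher and 0 lower. With median scaling, 3 synthesis sites were higher and 16 lower, and 0 oxidation sites higher and 6 lower. With the genome-wide background, 4 synthesis sites were higher and 1 lower, and 4 oxidation sites higher and 2 lower, with *Fads2* at 0.19 (adjusted p = 0.412), *Hacd1* at 0.13 (adjusted p = 0.631) and *Acadm* at −0.19 (adjusted p = 0.359), and *Insig1* (−0.36, adjusted p = 0.0565) and *Acsl5* (0.50, adjusted p = 0.175) did not pass either. With median scaling *Etfa* (0.24, adjusted p = 0.208) and *Mlycd* (0.27, adjusted p = 0.174) did not pass. The counts with quantile normalization compare with 13.6% of all sites higher and 14.1% lower. Between reactivated and activated NSPCs, 5 synthesis sites were higher, among them *Me1* (0.92), *Acsl5* (0.87) and *Slc25a1* (0.86), and 5 lower, among them *Fads2* (−0.74), *Elovl6* (−0.68), *Insig1* (−0.66) and *Hacd1* (−0.53). None of the 5 passed without normalization, where *Fads2* was at −0.08, *Elovl6* at −0.08, *Insig1* at −0.02, *Hacd1* at 0.14 and *Srebf2*, the other one, at 0.06. With the genome-wide background, none of these 5 passed either (adjusted p from 0.0701 to 0.687). With quantile normalization, the other fitted promoter site of *Slc25a1* was at −0.09 (adjusted p = 0.818, limma). Of the oxidation list, 4 were higher, with *Ppargc1a* at another start (0.96) and *Slc25a20* (0.93) the furthest, and *Cpt1c* (−0.79) was lower. With the genome-wide background *Ppargc1a* (0.70, adjusted p = 0.0593), *Slc25a20* (0.64, adjusted p = 0.108), *Cpt1c* (−0.53, adjusted p = 0.194) and *Acsl5* (0.68, adjusted p = 0.0973) did not pass. Without normalization, 17 synthesis and 16 oxidation sites were higher and 0 lower, and with median scaling 4 and 2 were higher and 9 and 3 lower. With that background 4 and 3 were higher and 1, a site outside those 5, and 0 lower, and of all sites 9.31% were higher and 8.92% lower with quantile normalization. *Me1*, malic enzyme, which supplies NADPH for synthesis, had 3.55 and 2.83 in quiescent NSPCs, 3.98 and 3.99 in activated NSPCs and 11.6 and 11.7 in reactivated NSPCs. At 2 of 41 promoter sites of the oxidation list (4.88%) and 0 of 53 of the synthesis list, chromatin was open in quiescent and reactivated and closed in activated NSPCs, where 1.15% of all promoter sites had this pattern. One was that of *Acadvl*, a dehydrogenase of the first step of oxidation, with 4.83 and 4.28 in quiescent and 6.62 and 8.09 in reactivated NSPCs. The other, of *Etfb*, had 3.94 and 3.13 in quiescent and 4.67 and 3.59 in reactivated NSPCs, and another start of this gene was open in all 3 states. These counts of 2 and 0 sites were not repeated with lists of equal length or a minimum −log10 q.

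The promoter patterns most like those of *Fasn* and *Cpt1a* were sought among 11073 genes by the Euclidean distance over the 6 normalized log2 values centred on their mean. Among the 3 nearest to *Fasn* were *Smad5* (0.14) and *Yod1* (0.15), where the median distance was 0.93. Nearest to *Cpt1a* were *Trp53inp2* (0.09), *Ano8* (0.11) and *Dtwd1* (0.14), where the median was 0.75. These distances describe 6 libraries and were not tested.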

How the data were processed

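The files are lists of peaks, 1 for each of 6 ATAC-seq and 2 H3K4me3 libraries. Per the study's methods and processing notes, the authors trimmed reads with Trim Galore 0.4.0, aligned them to mm10 with Bowtie2 2.2.5, removed duplicates with Picard 1.88 and SAMtools 1.3.1, and ran MACS with an FDR threshold of 0.05, with H3K4me3 as broad peaks against input. The deposited fold enrichment is the ratio of the authors' pileup to the higher of a local and a genome-wide background. The deposited −log10 p and −log10 q come from the same MACS run of the authors on a single library and increase with its depth. The score deposited by the authors was not used.

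Peaks on autosomes, X and Y were merged into sites, and the highest fold enrichment was taken. Genes and TSSs came from GENCODE M21, and genome sequence and promoters from RefSeq (GRCm38.p6). Log2 fold enrichment at sites with a peak in all 6 libraries was quantile-normalized and fitted with limma 3.58.1 (a mean for each state, eBayes with trend, 3 residual and 13.6 prior degrees of freedom), with Benjamini-Hochberg adjustment over 23116 sites at 0.05. The pileup and the local background of each peak were solved for from its fold enrichment and −log10 p, as MACS defines them. With 2 libraries a state, p-values rest on a spread shared across sites. Python 3.11.15 with numpy 2.4.6, pandas 2.3.3, scipy 1.17.1 and matplotlib 3.10.9 and R 4.3.3 were used. The fit, the merging and the recovery of pileups were tested on simulated data.

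Values are given for every promoter site, every site called, every site open in 1 state and closed in another and the strongest distal site of each gene, with further sites as examples chosen after their values were seen. From the wider lists, up to 5 called promoter sites were named in each direction and comparison, and, for *Fasn* and *Cpt1a*, the 3 nearest promoters, of which one is not reported here, nor is one of the motifs searched. *Me1*, *Acadvl* and *Etfb* were given with levels after their values were seen, and *Acadm*, *Srebf2* and, against quiescent NSPCs, *Hacd1* were named for a change of sign. The members and lists were chosen with earlier results of these data known. Alternatives were median scaling, no normalization, a replicate block, a minimum −log10 q of 10, a floor for missing peaks, the mean over peaks, a 4-library fit, other rules of assignment, lists of equal length and each library left out. The genome-wide background was added after the data were seen.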

Additional observations from a re-analysis of the deposited data

How the results depend on the processing

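Calls rest on 2 libraries a state and on peak lists, so that sites below the lowest pileup called give no value, and quiescent replicate 2 with its higher background and the longer reactivated lists enter every comparison. Where a cause is not evident from the alternative itself, it was not tested.

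Over all sites, 1393 were higher and 1071 lower in activated than in quiescent NSPCs, 3150 and 3251 in reactivated than in quiescent, and 2152 and 2062 in reactivated than in activated NSPCs. In the order higher and lower, in these 3 comparisons, no normalization gave 2186 and 442, 15756 and 126, and 12166 and 109. A −log10 q of at least 10 gave 452 and 344, 1666 and 1754, and 1221 and 1145, with fewer sites tested. A floor for libraries with no peak gave 3799 and 5180, 5976 and 7424, and 3 and 9. The mean over the peaks of a site gave 567 and 377, 2079 and 1773, and 1093 and 817. Median scaling gave 1629, 5940 and 3363 lower sites, and the genome-wide background 1723 lower in activated than in quiescent NSPCs. Without each library in turn, the counts ranged from 879 to 1106 and from 346 to 1020, from 1373 to 3707 and from 1266 to 3777, and from 551 to 1984 and from 487 to 1731.

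Of the member sites, 0 and 0, 1 and 4, and 3 and 1 were called. No normalization gave 2 higher in the first comparison, 14 and 0 in the second, and 9 and 0 in the third. The floor gave 1 and 4 in the first and 0 and 0 in the third. The genome-wide background gave 2 lower in the first, 2 and 0 in the second, and 1 higher in the third. The mean over peaks gave 0 higher in the second and 1 and 0 in the third. A −log10 q of at least 10 gave 1 lower in the second and 1 higher in the third, and median scaling 3 lower in the third. Without each library, the ranges were 0 to 0 and 0 to 1, 0 to 2 and 1 to 4, and 0 to 3 and 1 to 1. Without normalization, Acaca −292 and Fasn −121 turned to 0.18 and 0.16 between reactivated and quiescent NSPCs. Ppara −48376, uncalled there at 0.33, turned to −0.20 with the mean over peaks, and Cpt1a +22, uncalled at 0.26, to −0.05 without quiescent replicate 1, in a range up to 0.48 without quiescent replicate 2.

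By peak pattern, a −log10 q of at least 10 left 35 of 62 member sites and 14 of 23 open in all 3 states. It gave 1 site open in activated and reactivated alone (2 without it), 1 in quiescent and reactivated alone (3) and 0 in quiescent alone (1). A peak in 1 library was found at 1 site (19 without it). The sites first counted in these later patterns all lost them, as peaks they rest on fell below 10, so that each 1 is another site. The same limit gave 1 site open in quiescent and closed in activated NSPCs (4 without it) and 1 with the reverse (2). Neither was among those first counted. Lists of equal length gave 41 sites, 0 open in activated and reactivated alone, 1 in quiescent and reactivated alone and 0 in reactivated alone. They gave 11 with a peak in 1 library and 1 open in activated and closed in quiescent NSPCs. Within 25 kb of the genes, 1 of 3 sites open in quiescent and reactivated alone remained, and 2 of 4 open in quiescent and closed in activated NSPCs. With the outermost start alone, 8 sites were open in reactivated NSPCs alone. Without each library, the counts ranged from 53 to 62 in all, 23 to 24 open in all 3 states, 2 to 5 in activated and reactivated alone, 3 to 4 in quiescent and reactivated alone, 4 to 13 in reactivated alone and 1 to 3 in quiescent alone. They ranged from 4 to 7 open in quiescent and closed in activated NSPCs and from 2 to 7 for the reverse, since a state with 1 library left counts on that library.

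Libraries with the same replicate number did not deviate together (r = 0.0106, 0.0262 and −0.00496 across 23116 sites, which are not independent). With a replicate block, 1449 and 1116, 3209 and 3249, and 2265 and 2088 of all sites were called, and 0 and 0, 1 and 4, and 3 and 1 member sites, and no call at a named member site changed.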
